A study of Mus musculus with 24 samples.

Results

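Replication-dependent histone genes are the histone genes of the mouse whose symbols begin with Hist1h, Hist2h, Hist3h or Hist4h. All symbols of this form in the RPKM tables were taken, which gave 65 members of 25410 symbols: 6 linker histones (H1), 18 H2A, 17 H2B, 12 H3 and 12 H4. By symbol, 51 belong to the Hist1 cluster, 10 to Hist2, 3 to Hist3 and 1 to Hist4, and 2 are named as pseudogenes. RPKM scales a gene's reads by the length of its gene model and by the mapped reads of the library, so it is a level per length. RNA came from the duodenum of male Cyp27b1 null mice, which lack the enzyme that makes 1,25-dihydroxyvitamin D3 (1,25D), the hormonal form of vitamin D. From weaning at 3 weeks they were fed a purified diet without vitamin D, either with 0.47% calcium and 0.3% phosphorus (normal diet) or with 2% calcium, 1.25% phosphorus and 20% lactose (rescue diet). At 8 weeks each animal received vehicle or 2 ng of 1,25D per g body weight by intraperitoneal injection and the duodenum was taken 6 h later, giving 4 groups of 6 libraries. All groups carry the null genotype, so no wild-type level was measured. Ribosomal RNA was depleted rather than poly-A RNA selected, so that histone mRNAs, which lack a poly-A tail, were kept. The design text gives 12 mice for each diet and 8 injected mice for each group without saying how these counts relate, and the labels do not tie a library to an animal. It is therefore not known what the 6 libraries of a group stand for, and p-values measure only the spread between libraries.

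Replication-dependent histone genes are transcribed in S phase, when new chromatin needs histones to package the copied DNA. H2A, H2B, H3 and H4 form the nucleosome core and H1 binds the linker DNA between cores. Their mRNAs end in a stem-loop instead of a poly-A tail; the stem-loop binding protein Slbp and the U7 snRNP, which holds Lsm10 and Lsm11, direct the cut after it, and the mRNAs are broken down when replication ends. In the intestine, dividing cells sit in the crypts, and the villus cells above them no longer replicate their DNA.

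The stem-loop is shown because it is the feature that sets these mRNAs apart and the reason why the library type matters for them. It was searched for after the stop codon of each coding sequence in GENCODE M21 (build GRCm38) as a stem of 6 base pairs starting with GG and a loop of 4 bases starting with TT. Of 62 members with a coding sequence, 41 held it and 21 did not; among these 21 the models of 13 hold 0 bases after the stop codon and those of another 2 hold 1 or 2 bases, so that neither could show it. The sites below are written 5′ to 3′ with the stem and loop in capitals.
Hist2h2aa2: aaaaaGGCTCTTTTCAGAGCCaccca
Hist1h2bk: ccaaaGGCTCTTTTAAGAGCCactaa
Hist2h2ac: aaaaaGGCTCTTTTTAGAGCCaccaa
Hist1h3d: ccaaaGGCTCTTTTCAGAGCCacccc
Hist1h4c: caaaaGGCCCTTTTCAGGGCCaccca
Hist1h4j: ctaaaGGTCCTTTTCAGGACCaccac
The form shown for Hist2h2aa2 was the most common one and occurred in 3 H1, 9 H2A, 8 H2B and 4 H3 members. The H4 members had stems of their own: the form of Hist1h4c occurred in 6 of them and that of Hist1h4j in 2.

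Many copies of one class are so alike that short reads cannot always be placed, which bears on many of the levels given below. Of the 50-base stretches of a member's coding sequence, a median of 10.9% also occurred in another member for H1, 82% for H2A, 76.7% for H2B, 76.2% for H3 and 62.5% for H4. The share was 0% for Hist1h1a, Hist1h1b, Hist1h1t, Hist2h2bb, Hist2h2be, Hist3h2ba and Hist4h4. Hist2h2aa1 and Hist2h2aa2 have the same coding sequence throughout. Bases 61 to 150 of the coding sequence of 3 H2A members show the range, with capitals where a base differs from Hist1h2ad.
Hist1h2ad: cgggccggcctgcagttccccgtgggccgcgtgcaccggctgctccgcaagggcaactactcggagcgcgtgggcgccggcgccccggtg
Hist1h2ac: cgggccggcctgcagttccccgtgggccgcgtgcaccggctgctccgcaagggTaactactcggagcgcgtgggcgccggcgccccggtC
Hist2h2aa1: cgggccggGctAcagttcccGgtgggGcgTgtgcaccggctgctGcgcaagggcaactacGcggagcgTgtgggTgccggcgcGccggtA
Hist1h2ai had no difference from Hist1h2ad over these 90 bases, Hist1h2ac had 2 and Hist2h2aa1 had 11. How reads that fit several copies were counted is not given in the sources used here, so the split of a class among its copies is uncertain, and a class sum may count a read more than once.

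The promoters are shown for the sites they hold, and their relation to the levels of the members was not tested. RefSeq promoter windows (build GRCm38.p6) were available for 58 members, of which the 150 bases before the annotated start are shown for 1 member each of H2B, H1, H4 and H3. Capitals mark the matches to the searched letters.
Hist1h2bk, chr13:22035671-22035820, plus strand: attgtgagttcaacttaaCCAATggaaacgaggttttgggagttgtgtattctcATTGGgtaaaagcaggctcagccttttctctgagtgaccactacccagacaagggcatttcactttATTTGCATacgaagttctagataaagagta
Hist1h1b, chr13:21780626-21780775, minus strand: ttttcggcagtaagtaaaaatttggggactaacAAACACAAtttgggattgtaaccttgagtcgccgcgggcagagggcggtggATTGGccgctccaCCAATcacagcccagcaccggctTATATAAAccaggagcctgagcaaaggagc
Hist1h4k, chr13:21750554-21750703, minus strand: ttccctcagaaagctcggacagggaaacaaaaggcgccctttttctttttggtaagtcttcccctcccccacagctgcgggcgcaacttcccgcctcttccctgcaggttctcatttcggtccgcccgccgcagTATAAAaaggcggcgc
Hist1h3d, chr13:23575613-23575762, plus strand: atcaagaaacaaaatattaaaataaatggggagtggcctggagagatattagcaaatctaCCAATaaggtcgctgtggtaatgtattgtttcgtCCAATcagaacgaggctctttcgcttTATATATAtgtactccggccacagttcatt
CCAAT, searched on both strands of the 250 bases before the start, was present in 48 of 58 members and in 34.5% of all 27025 promoters in the table; it was found in all 17 H2A and all 14 H2B promoters and in 3 of 11 H4 promoters. TATAAA or TATATA, which can overlap, was searched on the sense strand of the last 50 bases and was present in 25 of 58 members against 4.01% of all promoters. The octamer ATTTGCAT, known from H2B promoters as a site for the factor Pou2f1, was searched on both strands and was present in 7 H2A and 6 H2B promoters, in no H1, H3 or H4 promoter and in 1.61% of all promoters. AAACACAA, known as the H1 box, was searched on both strands and was present in 4 of 6 H1 promoters, in 1 H2A and 1 H2B promoter and in 1.67% of all promoters. In GENCODE M21, 11 H2A members lie head to head with an H2B member, their starts 173 to 306 bases apart, so that each such pair shares the bases between.

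The tissue matched its label: Vil1, a brush border protein, was at 116 to 328 RPKM over the 24 libraries and Pdx1, a duodenal transcription factor, at 15.4 to 58.8 RPKM. Cyp24a1, which breaks down 1,25D and is induced by it, was at 0.016 to 4.03 RPKM under vehicle and at 92.1 to 1036 RPKM after 1,25D. Cyp27b1 was at 0 to 0.452 RPKM in all libraries; the deleted part is not given in the sources used here, so this level does not check the genotype. The files give no read counts, so the depth behind each value is unknown; the steps between low values put the libraries within 2.71 times of each other in relative depth, an estimate that 75.4% of library pairs met within 0.05 (log2). The vehicle library 6 of the normal diet stood apart: genes of the exocrine pancreas, which lies against the duodenum, made 17.6% of its summed RPKM, against 0.0581% to 6.11% in the other 23. These genes include Zg16, also listed as a goblet cell marker, so the lowest shares do not measure pancreas RNA alone.

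Histone members were among the most abundant mRNAs of the duodenum. Their RPKM summed to 5890 to 24779 per library, a median of 2.67% of the summed RPKM of all symbols. That total is not mRNA alone: 23 listed RNAs without a poly-A tail that are not histones, such as Rn7sk, summed to 73932 to 224836 RPKM per library. The share therefore also depends on their level. Of the 100 symbols with the highest mean RPKM, 8 were members, and of the top 500, 33 were. Hist2h2aa2, an H2A copy, was the highest member with a mean of 1151 RPKM over the 24 libraries (45th of all symbols, range 449 to 1880), followed by its copy Hist2h2aa1 (850 RPKM), Hist2h2bb (843 RPKM), an H2B, and Hist1h2ad (802 RPKM), another H2A. Among tested members the median of the mean level was 585 RPKM for H2A, 306 for H4, 148 for H2B, 102 for H1 and 73 for H3. Hist1h4k led H4 at 502 RPKM, Hist1h1b led H1 at 200 RPKM and Hist1h3b led H3 at 119 RPKM. H2A copies made 47.2% to 57.2% of the summed histone RPKM in a library, H4 15.6% to 25.5%, H2B 18% to 22%, H3 3.64% to 6.86% and H1 3.04% to 4.1%, so the order of the classes H2A, H4 and H2B above H3 and H1 held in all 24 libraries, while H4 and H2B overlapped.

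Of the 65 members, 61 were above 0 in every library and 57 were above 10 RPKM in every library. A level of at least 0.5 RPKM in at least 6 libraries was required for testing, and 62 members passed. The other 3 were Hist1h2af, listed at 0 in all 24 libraries, Hist1h2aa, listed at 0 in 18, and Hist1h1t, with a median of 0.292 RPKM; Hist1h2aa and Hist1h1t are known as testis histones. Hist1h2ba, also known from testis, was nevertheless listed at 11.9 to 63.8 RPKM. Its head-to-head partner Hist1h2aa did not exceed 1.72 RPKM. Of the 50-base coding stretches, 38.2% of Hist1h2ba and 2.35% of Hist1h2aa also occurred in another member. The level of Hist1h2ba may therefore include reads of other copies, which was not tested. The plot of levels by member shows the spread of the members.

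**Figure D1:**
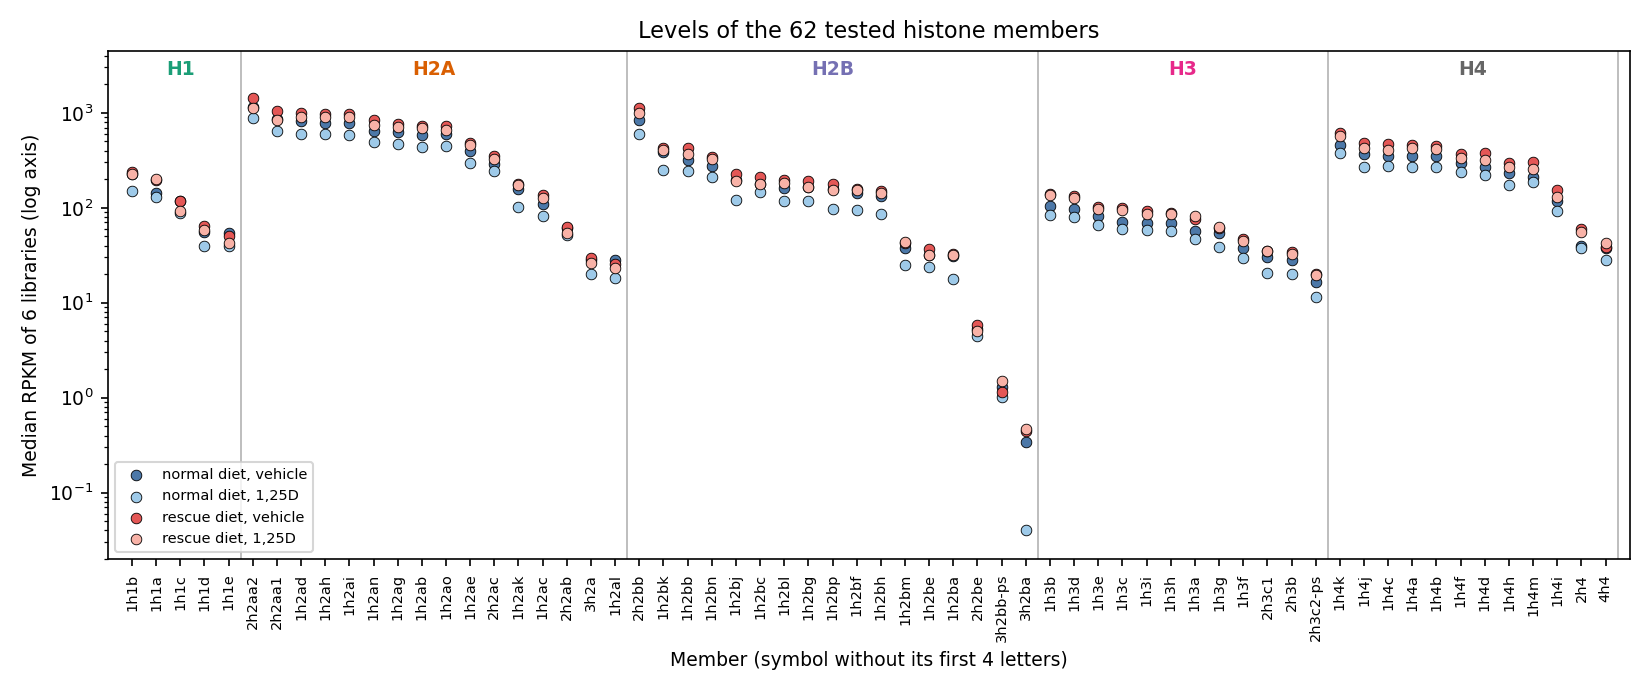
Median RPKM of the 6 libraries of each group (log axis) for the 62 tested members, ordered by class and by mean level; colours give the group. H2A copies reach the highest levels, with Hist2h2aa2 at a mean of 1151 RPKM, and Hist3h2ba, at a mean of 0.38 RPKM, is the lowest tested member.

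The median share of histone RNA was lowest in the normal-diet mice given 1,25D and highest in the rescue-diet groups, with overlap between most groups. In the vehicle libraries of the normal diet the members made 1.06% at the lowest, 2.67% at the median and 3.08% at the highest of the summed RPKM (2.43% ± 0.768, SD, n = 6). After 1,25D on the same diet the values were 1.73%, 2.07% and 2.43% (2.05% ± 0.289, SD, n = 6). In the rescue-diet libraries they were 2.57%, 3.04% and 3.57% under vehicle (3.08% ± 0.439, SD, n = 6). After 1,25D on that diet they were 2.2%, 3.07% and 3.61% (2.92% ± 0.584, SD, n = 6). All 6 normal-diet 1,25D libraries lay below all 6 rescue-diet vehicle libraries, a pair of groups that differ in both diet and injection. The remaining pairs of groups overlapped. The lowest of all 24 values, 1.06%, belonged to the vehicle library 6 of the normal diet named above for its pancreas RNA; with the pancreas genes taken out of the total it was 1.29%, still the lowest of the 24. That library was the lowest of the 24 for 60 of the 62 tested members. Without it, the vehicle group of the normal diet ran from 2.04% to 3.08%, with a median of 2.7%. In bulk tissue, fewer dividing cells and less histone RNA per dividing cell cannot be told apart.

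**Figure D2:**
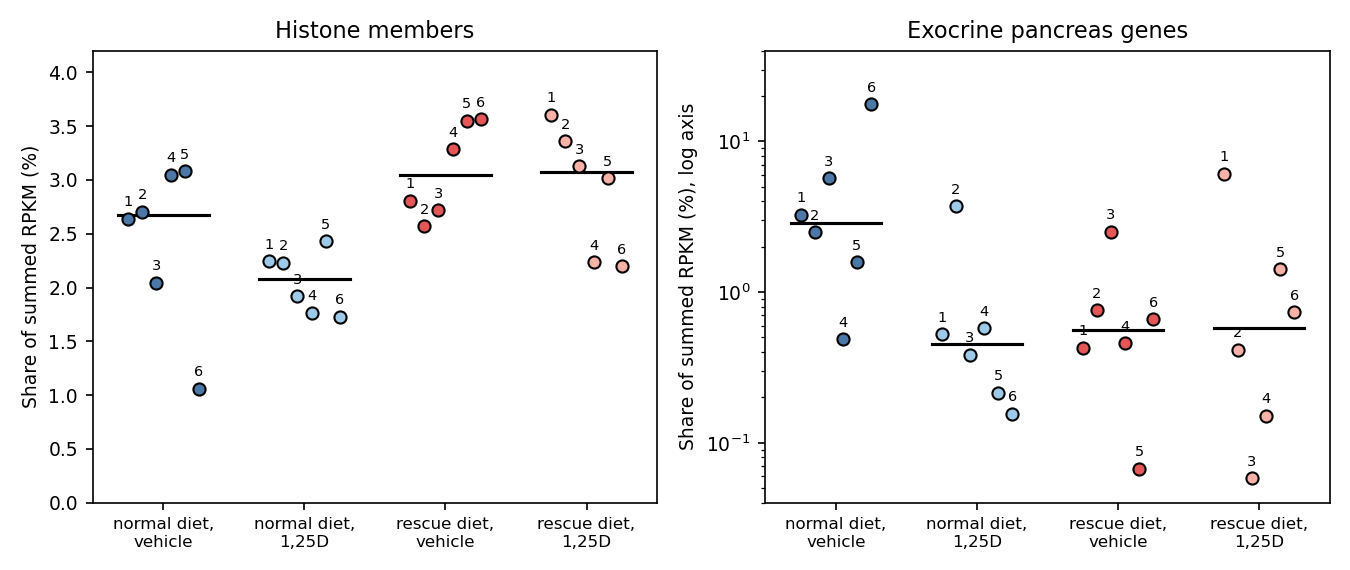
Left, summed RPKM of the 65 members as a percentage of the summed RPKM of all symbols, 1 point per library with its replicate number and the group median as a bar; right, the same for exocrine pancreas genes on a log axis. The vehicle library 6 of the normal diet is lowest on the left, at 1.06%, and highest on the right, at 17.6%.

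The diet comparison asks whether feeding calcium, phosphorus and lactose went with another histone level in mice without their own 1,25D. Differences are on the log2(RPKM + 0.5) scale and were tested with limma, with p-values adjusted over all 20006 symbols tested. Averaged over both injections, all 62 tested members were higher on the rescue diet, with a median difference of 0.47, against a median of 0.10 over all symbols tested, of which 76.7% were above 0. No member passed an adjusted p of 0.05, and none of all symbols did (0%); the smallest adjusted p of a member was 0.317. At an unadjusted p under 0.05, 53 members were higher and 0 lower, where 8.93% of all symbols were higher and 0.57% lower. The members share reads and move together across libraries, so this count is not 53 separate results. Leaving out 1 library moved the median of 0.47 to between 0.36 (without the vehicle library 6 of the normal diet) and 0.54 (without vehicle library 4 of that diet).

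The H2A members had the highest class median in this average, at 0.54 (range 0.20 to 0.58 over 16 members). H2B members had a median of 0.51, H3 of 0.49, H4 of 0.45 and H1 of 0.40. The order of these class medians was not tested. Hist1h2ac, an H2A, had the smallest p of the members. On the normal diet it was at 38.1, 111 and 129 RPKM (lowest, median and highest) under vehicle and at 70.1, 82.8 and 96.2 RPKM after 1,25D. Its rescue-diet values were 106, 135 and 167 RPKM under vehicle and 93.1, 127 and 159 RPKM after 1,25D. The groups of the 2 diets overlapped within either injection. The diet difference was 0.56 (SE 0.16), 1.47-fold, with an unadjusted p of 0.00146 and an adjusted p of 0.317. Hist1h2ab, another H2A, differed by 0.57 (SE 0.16, adjusted p = 0.317) and Hist1h2ae, also an H2A, by 0.56 (SE 0.16, adjusted p = 0.317).

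The most abundant members of each class had the same direction, and their groups overlapped. Hist2h2aa2, the highest H2A, was at 449, 1159 and 1540 RPKM (lowest, median and highest) on the normal diet under vehicle and at 783, 886 and 1124 RPKM after 1,25D. Its rescue-diet values were 983, 1420 and 1880 RPKM under vehicle and 902, 1116 and 1585 RPKM after 1,25D. The diet difference averaged over injections was 0.38 (SE 0.17, adjusted p = 0.487), below the H2A median, and that of its copy Hist2h2aa1 was 0.38 (SE 0.17, adjusted p = 0.468). Hist2h2bb, the highest H2B, was at 333, 848 and 944 RPKM under vehicle and at 527, 604 and 834 RPKM after 1,25D on the normal diet. Its rescue-diet values were 715, 1110 and 1539 RPKM and 558, 999 and 1097 RPKM. The difference was 0.52 (SE 0.18, adjusted p = 0.361), and that of Hist1h2bb, another H2B, was 0.54 (SE 0.18, adjusted p = 0.338). Hist1h3b, the highest H3, was at 41.4, 105 and 178 RPKM under vehicle and at 54.9, 83.7 and 139 RPKM after 1,25D on the normal diet. Its rescue-diet values were 87.6, 140 and 218 RPKM and 105, 137 and 150 RPKM, a difference of 0.51 (SE 0.19, adjusted p = 0.387). For Hist1h3e, another H3, the difference was 0.40 (SE 0.19, adjusted p = 0.522). Among H4 members the diet difference was 0.46 (SE 0.16, adjusted p = 0.355) for Hist1h4k, 0.48 (SE 0.16, adjusted p = 0.339) for Hist1h4j and 0.45 (SE 0.15, adjusted p = 0.348) for Hist1h4c. The linker histones spread most: Hist1h1a differed by 0.56 (SE 0.18, adjusted p = 0.335), Hist1h1b by 0.41 (SE 0.17, adjusted p = 0.445) and Hist1h1c by 0.14 (SE 0.15, adjusted p = 0.820). Hist1h1a was at 64.8, 143 and 215 RPKM under vehicle on the normal diet and at 167, 198 and 281 RPKM on the rescue diet, where 2 libraries lay above the highest of the normal diet.

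Under vehicle alone, 61 of 62 members were higher on the rescue diet, with a median of 0.44 against 0.10 for all symbols, of which 68.9% were above 0. None passed the adjusted threshold, which 0% of all symbols passed. At an unadjusted p under 0.05, 22 members were higher and 0 lower, where 6.58% of all symbols were higher and 0.6% lower. Hist2h4, an H4 member, had the smallest p; it was at 15.3, 39.3 and 73.0 RPKM on the normal diet and at 40.6, 59.3 and 88.4 RPKM on the rescue diet. All 6 rescue-diet libraries lay above the normal-diet median and 2 above its highest library. The difference was 0.71 (SE 0.26, adjusted p = 0.618). Hist1h2an, an H2A, was at 219, 643 and 762 RPKM on the normal diet and at 657, 831 and 949 RPKM on the rescue diet, with 3 rescue-diet libraries above the highest of the normal diet. The difference was 0.60 (SE 0.24, adjusted p = 0.641). Hist1h4d, an H4, was at 149, 268 and 395 RPKM on the normal diet and at a median of 377 RPKM on the rescue diet, where all 6 libraries lay above the normal-diet median. That difference was 0.48 (SE 0.19, adjusted p = 0.641). Hist3h2ba was the 1 member in the other direction, by -0.25 (SE 0.27), at levels under 2 RPKM in every library. With the pancreas genes taken out of the totals, the median over members was 0.37 and 15 members were higher at that p. Without the vehicle library 6 of the normal diet altogether, the median was 0.21 and 1 member, not 22, had an unadjusted p under 0.05. The count of 22 also moved with other libraries: it was 4 without the rescue-diet vehicle library 5, 5 without the normal-diet vehicle library 3, and 7 without the rescue-diet vehicle library 4 or 6. It was 34 without the normal-diet vehicle library 5, 39 without the rescue-diet vehicle library 2 and 42 without the normal-diet vehicle library 4. With the spread estimated from these groups only, it was 2.

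After 1,25D, 61 of 62 members were again higher on the rescue diet, with a median of 0.53 against 0.12 for all symbols, of which 70.7% were above 0. None passed the adjusted threshold, which 0.01% of all symbols passed. At an unadjusted p under 0.05, 39 members were higher and 0 lower, where 5.17% of all symbols were higher and 3.2% lower. The H3 members had the highest class median, 0.62, with 11 of 12 at an unadjusted p under 0.05. Hist1h2bm, an H2B, was at 19.4, 25.3 and 42.1 RPKM on the normal diet and at 30.9, 43.7 and 60.5 RPKM on the rescue diet. All 6 rescue-diet libraries lay above the normal-diet median, and 4 above its highest library. The difference was 0.70 (SE 0.25), 1.62-fold, with an adjusted p of 0.480. Hist2h3b, an H3, was at 15.5, 20.1 and 27.1 RPKM on the normal diet and at 22.9, 32.7 and 39.0 RPKM on the rescue diet, where 4 libraries lay above the highest of the normal diet. The difference was 0.59 (SE 0.21, adjusted p = 0.480). The library with pancreas RNA is not in either group mean here but enters the shared estimate of the spread: without it the differences were the same, 50 members were higher at that p and the smallest adjusted p was 0.206. Other single libraries moved the count of 39 the other way, to 10 without the normal-diet 1,25D library 6, 13 without library 4 of that group and 15 without the rescue-diet 1,25D library 2. With libraries weighted by their spread (limma array weights), 31 of the 62 members passed the adjusted threshold here, all higher on the rescue diet and led by Hist1h2ac (0.68, SE 0.14, adjusted p = 0.0111); 1287 of all symbols passed under the same weights. The same weights gave 0 called members in the average over injections and 0 under vehicle, where the median over members was 0.24 and 0 members had an unadjusted p under 0.05. The member without a higher value on the rescue diet was Hist2h2ab, an H2A, at -0.01 (SE 0.25).

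**Figure D3:**
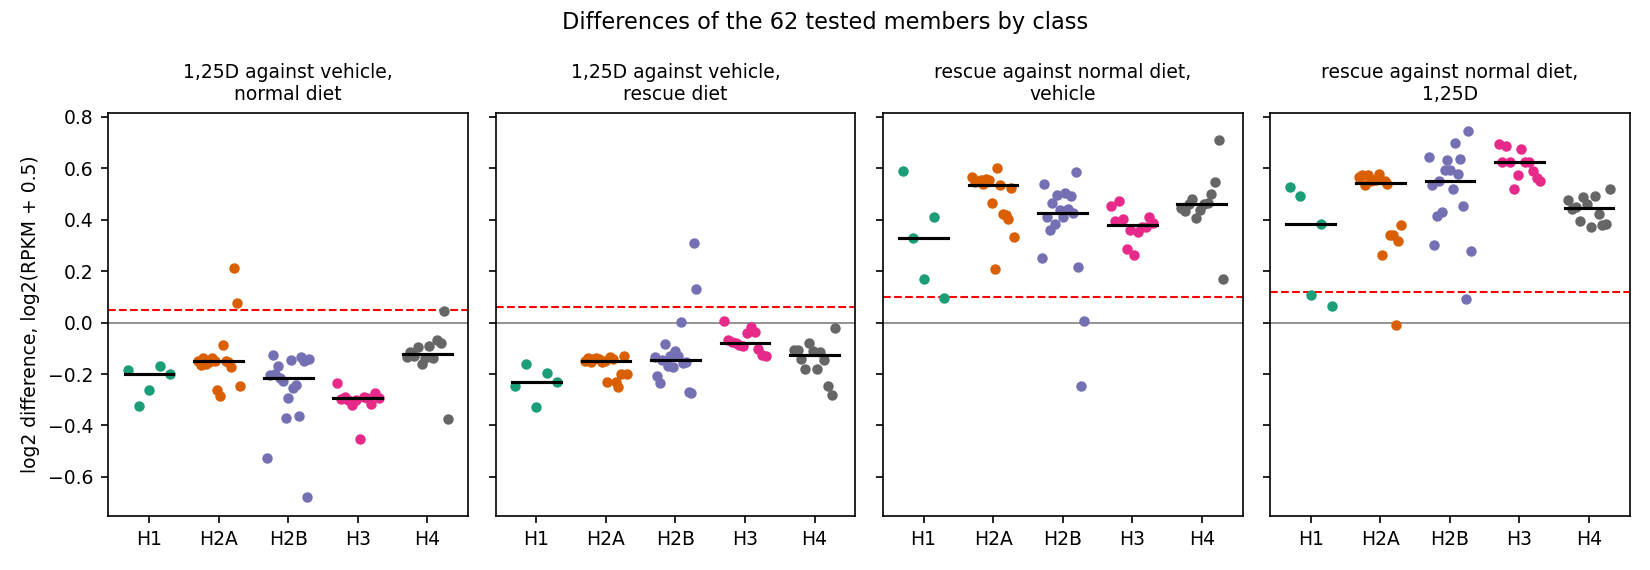
Log2 differences of the 62 tested members by class in the 4 comparisons of 2 groups, 1 point per member, with the class median as a bar and the median of all symbols tested as a dashed red line. Most members lie below 0 for 1,25D against vehicle (59 and 58 of 62) and above the dashed line for the rescue against the normal diet; no member passed the adjusted threshold in any of them.

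The injection comparison asks which genes respond within 6 h to 1,25D. On the normal diet 59 of 62 members were lower after 1,25D, with a median of -0.18 against 0.05 for all symbols, of which 58.8% were above 0. None passed the adjusted threshold, which 1.84% of all symbols passed. At an unadjusted p under 0.05, 0 members were higher and 1 was lower (Hist3h2ba), where 9.74% of all symbols were higher and 2.22% lower. On the rescue diet 58 of 62 members were lower, with a median of -0.14 against 0.06 for all symbols, of which 60.9% were above 0. Leaving out 1 library moved this median to between -0.23 (without the rescue-diet vehicle library 2) and -0.06 (without the rescue-diet 1,25D library 6), and array weights gave -0.02 with 19 members above 0. None passed the adjusted threshold, which 0.145% of all symbols passed; at an unadjusted p under 0.05, 0 members were higher and 0 lower, where 3% of all symbols were higher and 1.83% lower. Averaged over both diets 61 of 62 members were lower, with a median of -0.18. None passed the adjusted threshold, which 1.28% of all symbols passed; at an unadjusted p under 0.05, 0 members were higher and 0 lower, where 7.45% of all symbols were higher and 2.33% lower.

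The linker histone Hist1h1c had the smallest p in that average. On the normal diet it was at 41.0, 118 and 157 RPKM under vehicle and at 74.1, 87.4 and 98.1 RPKM after 1,25D. Its rescue-diet values were 95.4, 117 and 154 RPKM under vehicle and 76.0, 92.0 and 109 RPKM after 1,25D. All 6 libraries given 1,25D lay below the vehicle median on either diet, and the groups overlapped. The difference was -0.26 (SE 0.21) on the normal diet, -0.33 (SE 0.21) on the rescue diet and -0.29 (SE 0.15, unadjusted p = 0.0565, adjusted p = 0.532) on average. The vehicle library 6 of the normal diet, at 41.0 RPKM, was the lowest of all 24, and the other 5 of its group ran from 105 to 157 RPKM. Without it, the 2 normal-diet groups did not overlap and Hist1h1c passed the threshold. The difference was then -0.53 (SE 0.13, adjusted p = 0.0291) on the normal diet and -0.43 (SE 0.09, adjusted p = 0.00785) on average. In the same fit 396 of all symbols passed on the normal diet and 361 in the average. The median over members was -0.41 on the normal diet, against -0.02 over all symbols, and -0.29 in the average, against 0.03. At an unadjusted p under 0.05, 44 members were lower and 0 higher on the normal diet, and 36 were lower and 0 higher in the average. The share of all symbols at that p was not counted in this fit. Members share reads and move together, so these counts are not separate results.

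Hist1h1b, the most abundant H1, was at 71.3, 226 and 269 RPKM under vehicle and at 126, 150 and 181 RPKM after 1,25D on the normal diet. All 6 libraries given 1,25D lay below the vehicle median. The difference was -0.32 (SE 0.24, adjusted p = 0.719). On the rescue diet the medians were 240 and 228 RPKM. Hist1h2bk, an H2B, was at 131, 387 and 474 RPKM under vehicle and at 203, 251 and 359 RPKM after 1,25D on the normal diet, a difference of -0.29 (SE 0.25, adjusted p = 0.790). Hist1h3d, an H3, was at 34.1, 96.2 and 178 RPKM and at 54.3, 80.1 and 124 RPKM in the same groups, a difference of -0.30 (SE 0.28, adjusted p = 0.835). Hist1h4k, an H4, was at 210, 459 and 603 RPKM and at 346, 378 and 510 RPKM, a difference of -0.07 (SE 0.22, adjusted p = 0.990). In each of these 3 the groups overlapped. On the rescue diet Hist2h2be, an H2B, had the smallest p, at 4.81, 5.78 and 7.28 RPKM under vehicle and 3.49, 5.01 and 6.17 RPKM after 1,25D, a difference of -0.27 (SE 0.17, adjusted p = 0.878). Hist1h2bc, an H2B that lies head to head with Hist1h2ac, was at 185, 213 and 253 RPKM under vehicle and at 130, 178 and 248 RPKM after 1,25D on that diet. Of its 6 libraries given 1,25D, 4 lay below the lowest vehicle library. The difference was -0.23 (SE 0.18, adjusted p = 0.878). Averaged over diets, Hist1h2al, an H2A, differed by -0.26 (SE 0.17, adjusted p = 0.687).

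Hist1h2ba, the H2B known from testis, was at 11.9, 30.7 and 50.9 RPKM under vehicle and at 14.9, 17.6 and 29.4 RPKM after 1,25D on the normal diet. All 6 libraries given 1,25D lay below the vehicle median. The difference was -0.53 (SE 0.32, adjusted p = 0.594). Its rescue-diet medians were 32.8 RPKM under vehicle and 31.9 RPKM after 1,25D.

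The 1,25D and diet comparisons share the vehicle libraries of the normal diet, so a low library there raises the diet difference and brings the 1,25D difference nearer to 0. The plot of medians with each library left out shows this: the median of the members for 1,25D on the normal diet ran from -0.41 to -0.08 and that for diet under vehicle from 0.21 to 0.56. The sign did not change with any of the 24 libraries left out.

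**Figure D4:**
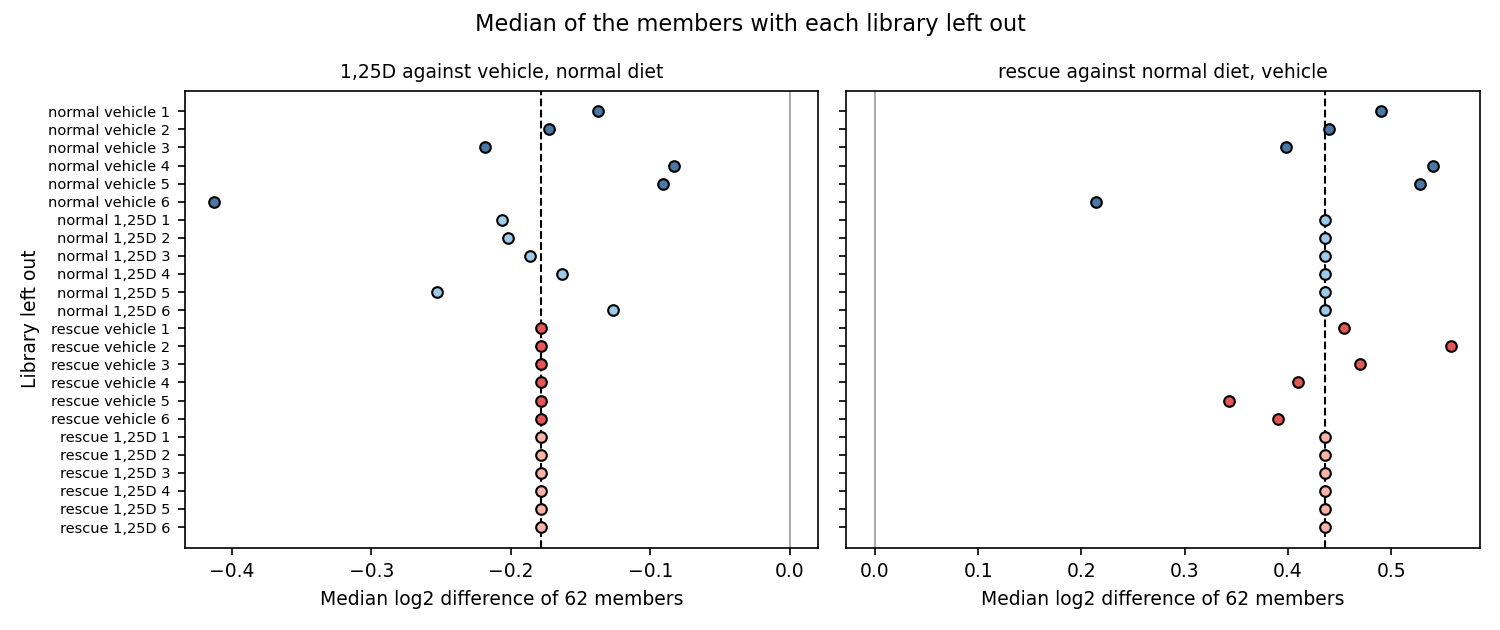
Median log2 difference of the 62 members (horizontal axis) with each library named on the vertical axis left out; the dashed line is the median with all 24 libraries. Leaving out the vehicle library 6 of the normal diet moves the median for 1,25D from -0.18 to -0.41 and that for diet from 0.44 to 0.21.

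Whether the response to 1,25D differed by diet was tested as an interaction. None of the 62 members passed the adjusted threshold, which 0.005% of all symbols passed. At an unadjusted p under 0.05, 1 member was higher and 0 lower, where 1.26% of all symbols were higher and 5.59% lower. The median over members was 0.03 against 0.01 for all symbols, and 40 of 62 members were above 0, where 51.7% of all symbols were. That count ran from 23 to 60 with 1 library left out. The H3 members, all 12 of them above 0, had a median of 0.22, H2B of 0.08 and H1 of -0.03. With the vehicle library 6 of the normal diet left out, the median over members was 0.27. The 1 member was Hist3h2ba, an H2B of the Hist3 cluster, with a difference of 0.99 (SE 0.38, adjusted p = 0.522). On the normal diet it was at 0.196, 0.344 and 1.73 RPKM under vehicle and at 0, 0.04 and 0.502 RPKM after 1,25D. Its rescue-diet values were 0, 0.447 and 0.553 RPKM under vehicle and 0.29, 0.474 and 0.937 RPKM after 1,25D. These levels lie around the added 0.5 RPKM. Without its highest vehicle library the normal-diet vehicle group did not exceed 0.44 RPKM. The next members by p were Hist2h2ab, an H2A, at -0.41 (SE 0.35, adjusted p = 0.957), and Hist1h3g, an H3, at 0.41 (SE 0.43, adjusted p = 0.961).

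Within groups the members varied together from library to library. Over the 24 libraries, with each group centred on its mean, the correlation between 2 members had a median of 0.82 over 1891 pairs (0.69 without the vehicle library 6 of the normal diet). These values describe libraries that share their scaling, and pairs of copies also share reads. Within a class the median was 0.92 for H1, 0.94 for H2A, 0.86 for H2B, 0.97 for H3 and 0.93 for H4. Between classes it ran from 0.75 (H2A with H4) to 0.92 (H1 with H2A). Without the vehicle library 6 of the normal diet it ran from 0.58 (H2A with H3) to 0.84 (H1 with H2A). For the 151 pairs with at least 95% coding identity the median was 0.98, and for the 73 pairs of a class with under 90% identity it was 0.84. Head-to-head H2A and H2B neighbours had a median of 0.92 over 10 pairs, and other H2A and H2B pairs 0.86 over 262. Hist1h2ad and Hist1h2ai, at 98.7% coding identity, stayed within a ratio of 1.01 to 1.05 in all 24 libraries. Hist1h2ad and its head-to-head neighbour Hist1h2bf ranged from 5.07 to 7.18, and Hist1h3b and Hist1h4k from 0.155 to 0.295. The member least like the rest was Hist3h2ba, with a mean correlation of -0.01, followed by Hist3h2bb-ps (0.50) and Hist4h4 (0.62). The member most like the rest was Hist1h1b (0.87). Hist3h2ba, Hist4h4 and Hist1h1b each shared 0% of their 50-base coding stretches with other members.

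Some replication-dependent histone genes are known to give poly-A transcripts as well, from a poly-A signal beyond the stem-loop. AATAAA was found after the coding part in the models of 16 members, of which 15 were tested. Another 13 tested members have models with at most 2 bases after the coding part, in which it could not be found, and are left out here. Models without AATAAA can also be short: those of Hist1h2bb and Hist1h2bj end 66 bases after the coding part, close behind the stem-loop. A signal farther on could not be found in such models, so the split also follows model length. The median diet difference, averaged over injections, was 0.40 (range 0.14 to 0.56) for the 15 members. It was 0.48 (range 0.08 to 0.58) for 31 tested members whose models showed no AATAAA. For 1,25D averaged over diets both medians were -0.18. The ranges overlapped and the difference between these sets was not tested.

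The genes that make and process histone mRNA did not pass the adjusted threshold in any of the 7 comparisons. Of 24 genes of histone mRNA processing, 21 were higher on the rescue diet averaged over injections, with a median of 0.21 (10 higher and 0 lower at an unadjusted p under 0.05). Over all symbols 76.7% were above 0 and 8.93% were higher at that p. Slbp, which binds the stem-loop, had group means of 39.8 ± 6.4 RPKM (SD, n = 6) on the normal diet with vehicle and 42.6 ± 6.41 with 1,25D. The rescue-diet means were 46.6 ± 3.12 and 51.4 ± 10.2 RPKM. Its diet difference was 0.25 (SE 0.09, adjusted p = 0.400). Lsm11, of the U7 snRNP, was at means of 1.7 to 1.96 RPKM and differed between diets by 0.10 (SE 0.11, adjusted p = 0.825). Lsm10, its partner, differed by -0.07 (SE 0.19, adjusted p = 0.939). All 13 listed regulators of histone gene transcription were above 0 for diet, with a median of 0.22, beside the same 76.7% of all symbols. Npat, the coactivator that gathers at histone gene clusters, differed by 0.20 (SE 0.09, adjusted p = 0.454), and Casp8ap2, which is needed for histone gene expression in S phase, by 0.06 (SE 0.10, adjusted p = 0.897). Hinfp, a factor known to act on H4 genes, had the smallest p of these regulators for 1,25D on the normal diet, at 5.89 RPKM under vehicle and 8.55 RPKM after it. That difference was 0.52 (SE 0.15, adjusted p = 0.0757).

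Histone genes outside the Hist clusters by symbol are the nearest relatives of the members. They include H2afx and Cenpa, and the list was not split by cell cycle phase or poly-A tail. Of 12 tested genes of this list, 12 were above 0 for diet, where 76.7% of all symbols were, with a median of 0.17. Of these, 2 had an unadjusted p under 0.05 and 0 passed the adjusted threshold of limma's test. H2afz, the H2A variant of regulated promoters, differed by 0.46 (SE 0.13, adjusted p = 0.317). H3f3b, which encodes H3.3, differed by 0.17 (SE 0.09, adjusted p = 0.586) and H1f0, the H1 of resting cells, by 0.14 (SE 0.08, adjusted p = 0.620). Of 21 histone chaperones, 20 were above 0, with a median of 0.21, and 7 were higher at an unadjusted p under 0.05, where 8.93% of all symbols were.

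Genes of DNA replication and division had the diet direction of the members. All 41 tested S phase genes were above 0 for diet, with a median of 0.38, and all 23 G2 and mitosis genes were, with a median of 0.36; 31 and 16 of them were higher at an unadjusted p under 0.05 and none passed the adjusted threshold. Of all symbols 76.7% were above 0, 8.93% were higher at that p and 0% passed the adjusted threshold. Pcna, the sliding clamp of the replication fork, differed by 0.46 (SE 0.13, adjusted p = 0.317) and Mki67, a marker of cycling cells, by 0.35 (SE 0.16, adjusted p = 0.512). For 1,25D on the normal diet the 2 lists parted: S phase genes had a median of 0.08 and 29 of 41 above 0, while G2 and mitosis genes had a median of -0.35 and 0 of 23 above 0, where 58.8% of all symbols were above 0. Pcna differed there by 0.33 (SE 0.19, adjusted p = 0.556) and Mki67 by -0.30 (SE 0.23, adjusted p = 0.743). The median of the members on the normal diet, -0.18, lay between the medians of these lists. On the rescue diet the median for 1,25D was 0.10 for S phase genes and -0.09 for G2 and mitosis genes. That of the members, -0.14, lay below both. There 30 of 41 S phase and 4 of 23 G2 and mitosis genes were above 0, where 60.9% of all symbols were.

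Across the 24 libraries the mean log2 level of the members went with that of the G2 and mitosis genes, with Pearson's r of 0.92 and Spearman's rho of 0.86. With the 2 libraries farthest from the median of that list left out, r was 0.89, and within groups it was 0.91 (0.81 without the vehicle library 6 of the normal diet). For S phase genes r was 0.74 and rho 0.70, with 0.67 without the 2 farthest libraries and 0.71 within groups. Other lists had r above that of S phase genes. These were histone chaperones (0.84, rho 0.77), histone genes outside the Hist clusters (0.84, rho 0.74) and histone mRNA processing (0.80, rho 0.68). Within groups and without the vehicle library 6 of the normal diet, r was 0.74, 0.61 and 0.67 for these lists. It was 0.71 for S phase genes, so of these lists only histone chaperones stayed above it. For 20 tested RNAs without a poly-A tail that are not histones, such as Rn7sk and Rmrp, r was 0.40 and rho 0.25, with 0.17 without the 2 farthest libraries and 0.54 within groups (0.30 without the vehicle library 6 of the normal diet). Their median diet difference was -0.02. For the estimated relative depth r was -0.03. These are descriptions over 18 relations, without a test; the levels share each library's scaling.

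**Figure D5:**
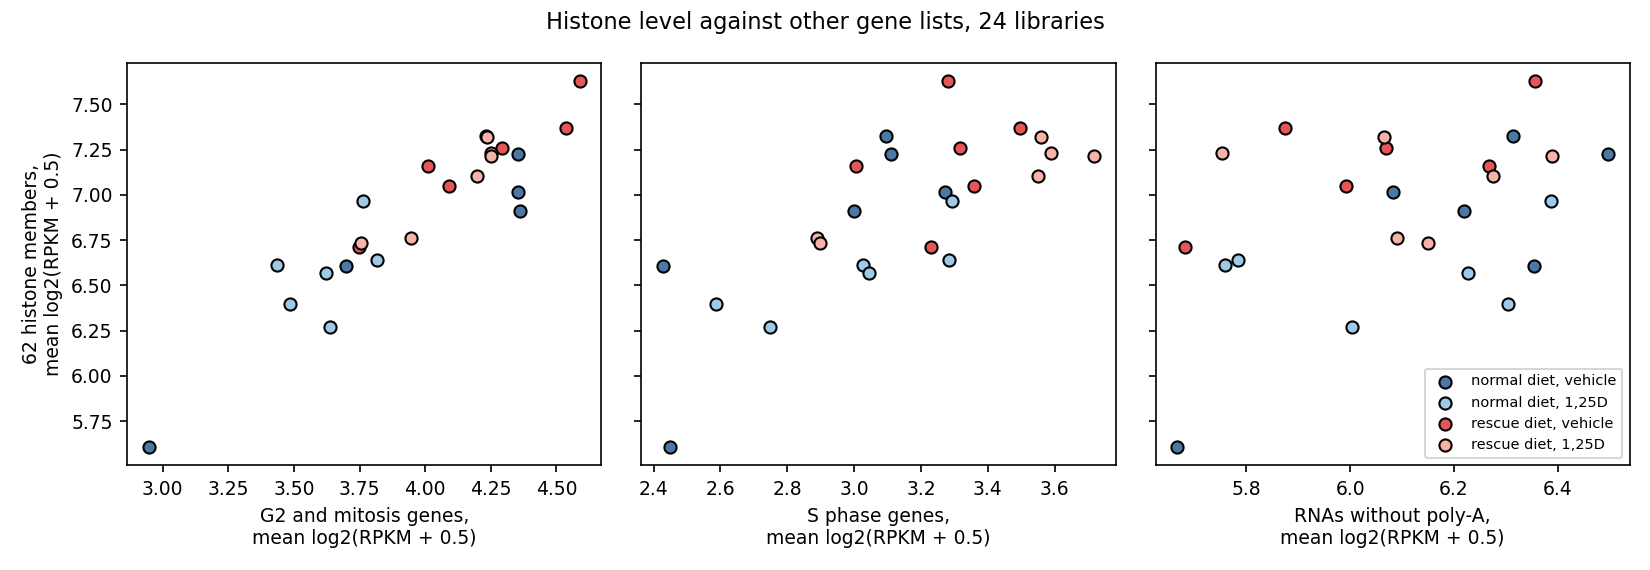
Mean log2(RPKM + 0.5) of the 62 members (vertical axis) against that of G2 and mitosis genes, S phase genes and RNAs without a poly-A tail, 1 point per library coloured by group. The points follow a line most closely on the left (r = 0.92) and least on the right (r = 0.40); the lowest point in each panel is the vehicle library 6 of the normal diet.

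Markers of other cells in the tissue also differed in level between the groups. Paneth cell genes, which mark the crypt base, summed to 5144 to 23057 RPKM on the normal diet with vehicle and 5575 to 13402 with 1,25D. In the rescue-diet groups they summed to 9003 to 19983 RPKM with vehicle and 8664 to 12381 with 1,25D. For 1,25D on the normal diet 0 of 14 Paneth genes were above 0 (median -0.60) and 1 of 13 crypt stem cell genes was (median -0.43). Of 18 enterocyte genes 17 were above 0 (median 0.67), and 5 passed the adjusted threshold. Of all symbols 58.8% were above 0 there and 1.84% passed. On the rescue diet all 3 lists had medians below 0: -0.44 for Paneth, -0.31 for crypt stem cell and -0.23 for enterocyte genes. Above 0 there were 2 of 14, 1 of 13 and 6 of 18 genes, where 60.9% of all symbols were. The members correlated with the Paneth list at r = 0.70 (rho 0.71) and with the crypt stem cell list at r = 0.65 (rho 0.77) over the 24 libraries. With the enterocyte list r was -0.33 (rho -0.50). Smooth muscle genes had a median of -0.40 for 1,25D on the normal diet and of 0.26 for diet, with r = 0.09. Exocrine pancreas genes, 27 in number, summed to 3005 to 98077 RPKM on the normal diet with vehicle, 918 to 20808 with 1,25D, and 468 to 14849 and 326 to 33916 on the rescue diet. Their median was -3.32 for 1,25D on the normal diet and -1.45 for diet. Of these genes Ctrc was listed at 0 in 5 libraries and Sycn in 4. Zg16, also listed as a goblet cell marker, was at 229 to 1438 RPKM, so the lowest sums do not measure pancreas RNA alone. Lymphocyte genes summed to 85.1 to 497 RPKM over all libraries and correlated with the members at r = 0.17 (rho -0.10). Igj, 1 gene of this list, was at 69.0 to 445 RPKM, and whether these cells divide was not tested. Testis germ cell genes summed to 5.93 to 17.7 RPKM, and Prm1 was listed at 0 in 18 libraries. The part of these cell types in the histone differences was not tested.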

How the data were processed

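RPKM values came in 24 deposited tables, 1 for each library, made from total RNA after ribosomal RNA depletion with a directional kit, per the labels' protocols. The submitters' processing notes name TopHat and the genome build mm9; for the counter, the annotation and multiply mapped reads nothing is given in the sources used here. Rows sharing a symbol were summed, which concerned 1 member (Hist1h2be). The depth is unknown and limits the precision of low values. Log2(RPKM + 0.5) was fitted with limma 3.58.1 (R 4.3.3) over 24 libraries with a mean per group, 20 residual degrees of freedom and an intensity trend, for symbols at 0.5 RPKM or more in at least 6 libraries; p-values are two-sided and Benjamini-Hochberg adjusted over 20006 symbols, threshold 0.05. The test was tested on simulated data. No 2 libraries held identical values. Named were the 3 highest members of each class, the 3 of smallest p per comparison and any called member; outside the members, named genes had to be called, have 1 of the 3 smallest p of their list, or be on a fixed list (such as Slbp, Npat and Mki67). Members and lists were chosen with earlier results of these data known. Gene names in sequence tables were matched by symbol or synonym: 65 of 65 in RefSeq (GRCm38.p6), 64 in GENCODE M21. Alternatives covered pseudocounts, filters, scalings, library weights, a replicate block and leaving out libraries.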

Additional observations from a re-analysis of the deposited data

Results flagged for a closer look

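Over 144 sets of 6 libraries (the histone share, the class sums and the 30 named members, in 4 groups), 4 held a library whose gap to its neighbour was large against the range of its group; chance gives about 1 in 20. Hist1h2ba reached 60.784 RPKM in the rescue-diet 1,25D library 2, where the next highest of the group was 32.2 RPKM. Hist1h2bm reached 42.091 RPKM in the normal-diet 1,25D library 5, where the next was 27.6 RPKM. Hist3h2ba reached 1.727 RPKM in the normal-diet vehicle library 1, where the next was 0.44 RPKM, and 0.502 RPKM in the normal-diet 1,25D library 3, where the next was 0.111 RPKM.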

How the results depend on the processing

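The count of 0 members past the adjusted threshold in the 7 comparisons held under each alternative except these. Array weights gave 31 members for diet after 1,25D. Leaving out 1 library at a time gave 0 to 1 for 1,25D on the normal diet and 0 to 1 for its average, the 1 being Hist1h1c without the vehicle library 6 of the normal diet in both. Leaving out that library and the rescue-diet 1,25D library 4 together, an alternative chosen after seeing the data, gave 2 (Hist1h1b and Hist1h1c) on the normal diet and 1 on average. The cause was not tested. Scaling by median of ratios moved the median of all symbols for diet under vehicle from 0.10 to -0.00, and that of the members from 0.44 to 0.31; quantile normalization gave 0.26 for the members. Quantile normalization also moved the median for 1,25D on the normal diet to -0.34, and array weights to -0.35. The median over members kept its sign in all alternatives of 6 comparisons, and in 28 of 35 for the interaction. Named members changed sign in 225 of 7459 alternative values, 155 of them for the interaction and 0 for the diet average; none of those members passed the adjusted threshold to begin with. Replicate numbers did not pair libraries: same-numbered libraries had a median correlation of 0.002 over 36 pairs, and 3 of 24 were closest to their own number. With the replicate block, 0 members passed in each comparison. Unknown depth limits Hist3h2ba most, the tested member with the lowest level.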
